A study of Mus musculus with 4 samples.

Results

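The miR-106a-363 cluster is a group of microRNAs (miRNAs) on the mouse X chromosome and a paralog of the better known miR-17-92 cluster. Its members here are the 4 mature strands that only this cluster encodes, mmu-miR-106a, mmu-miR-18b, mmu-miR-20b and mmu-miR-363 (written below without the species prefix), found by their names among the 577 miRNA names on the array. The cluster also encodes miR-19b and miR-92a, but their mature strands are made from miR-17-92 as well, so they are not members and are described beside them. The measurements come from A3-1 mouse embryonic stem cells, one established line grown in DMEM with 20% fetal bovine serum plus the cytokine LIF, which holds such cells undifferentiated. One group received an siRNA against Lin28a, whose protein LIN28A binds RNA and blocks the maturation of let-7 precursors. The control group received an siRNA against GFP, a jellyfish protein used as a reporter. RNA was taken after 48 h, and each group had 2 replicates, each on 1 single-colour (Cy3) Agilent miRNA array labelled from 100 ng of total RNA. The labels do not say that the replicates were separate cultures, so each p-value covers just the variation among these 4 arrays, some or all of which may be technical.

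miR-17-92 and its paralogs arose by duplication and carry strands of a few seed families. The seed, bases 2 to 8 of a miRNA, chooses most of its targets. Strands with the miR-17 seed are known to repress the cell cycle inhibitor Cdkn1a and the proapoptotic gene Bcl2l11, and the clusters as a whole are known to favour proliferation and survival. The X-linked cluster lies at a site of retroviral insertion in mouse T cell tumours, and its transcripts are known as Kis2 or Xpcl1. In the RefSeq annotation of GRCm38.p6, Mir363, Mir92-2, Mir19b-2, Mir20b, Mir18b and Mir106a follow each other on chromosome X, flanked by the noncoding genes A630012P03Rik and Kis2.

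The mature sequences are shown because they set both the seed families and how far the array can tell the strands apart. They are RefSeq's (GRCm38.p6), 5′ to 3′, with the seed in capitals. The members carry 3 seeds, and each has a mate encoded in miR-17-92 with the same seed. For miR-363 that mate is miR-92a, which both clusters encode.
miR-106a: cAAAGUGCuaacagugcagguag
miR-20b: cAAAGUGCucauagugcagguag
miR-17: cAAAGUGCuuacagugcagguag
miR-20a: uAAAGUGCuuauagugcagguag
miR-106b: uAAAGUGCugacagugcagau
miR-93: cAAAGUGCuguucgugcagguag
miR-18b: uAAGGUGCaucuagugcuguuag
miR-18a: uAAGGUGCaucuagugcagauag
miR-363: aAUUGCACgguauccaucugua
miR-92a: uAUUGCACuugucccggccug
miR-25: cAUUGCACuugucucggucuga

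Counted from 1 at the 5′ end, with the member's base first, miR-106a differs from miR-17 at 1 of 23 bases (A10U) and miR-20b from miR-20a at 2 (C1U and C10U). miR-18b differs from miR-18a at 2 of 23 bases (U18A and U20A). The array's probes pair with the 3′ part of a strand. In the files, the probe targets of the 4 members share 1 end per member, and the spacing of these ends (844, 684 and 462 bases from that of miR-363 for miR-106a, miR-18b and miR-20b) equals the spacing of the mature 3′ ends in RefSeq. The 2 miR-106a probes therefore cover 14 and 15 bases. In the lines below, the longest target of each member is in capitals.
miR-106a: caaagugcUAACAGUGCAGGUAG
miR-18b: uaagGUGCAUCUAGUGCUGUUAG
miR-20b: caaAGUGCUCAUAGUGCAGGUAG
miR-363: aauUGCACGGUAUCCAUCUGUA
Within its target, miR-106a differs from miR-17 at 1 base and miR-20b differs from miR-20a at 1 base, while miR-18b differs from miR-18a at 2. Whether RNA of the mate adds to the signal of these members was not tested.

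The probe targets lie on chromosome X in build mm9, per the file headers. They are chrX:50095718-50095732 for miR-106a, chrX:50095558-50095576 for miR-18b, chrX:50095336-50095355 for miR-20b and chrX:50094874-50094892 for miR-363. Each of these miRNAs is a noncoding gene of its own in the annotation, and no exon or intron of a host gene in mm9 was used here.

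The 4 arrays shared 1 slide and 1 scan, and 34.5% and 38.8% of spots were well above background with siLin28a and 32.5% and 32.9% with siGFP. All 6 stem cell markers of the miR-290-295 cluster were detected on every array, with summed total signals of 65765 and 68201 intensity units with siLin28a and 59534 and 59203 with siGFP. Muscle and endoderm markers were detected on no array, and of the primed pluripotency markers 4 of 5 were not. Of 7 fibroblast or feeder markers, 4 were detected on all arrays, with summed signals of 459 to 488 with siLin28a and 363.2 to 430 with siGFP, while miR-145 and miR-199a-5p were detected on none. Of 4 neural markers 3 were detected on all arrays (summed signals 244 to 330 with siLin28a and 209 to 255 with siGFP), without miR-9, and of 4 blood markers 2 were (110 to 159 with siLin28a and 101 to 127 with siGFP), without miR-223. The part of such cells in the results was not tested. In RNA from whole cultures, fewer cells with a miRNA and less of it per cell cannot be told apart. Lin28a mRNA is not measured by this array. let-7a, a known LIN28A substrate, had a log2 difference of 1.12 between siLin28a and siGFP (SE 0.07, limma adjusted p = 0.0210), with total signals of 78.1 and 78.3 with siLin28a and 10.5 and 9.59 with siGFP. Both its siGFP values lay at the floor, the lowest log2 value the processing allows (-3.40). The difference is thus understated, and its SE and p-value do not reflect the spread with siGFP. The other tested let-7 strands also had both siGFP values at the floor. Of these, let-7g stood at 1.01, let-7e at 0.35 and let-7d at 0.02 (limma adjusted p = 0.159, 0.159 and 0.752).

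Setting siLin28a against siGFP addresses how mature miRNA levels differ once LIN28A is targeted. All 4 members had lower scaled signals on both siLin28a arrays than on either siGFP array. Their mean log2 differences (siLin28a minus siGFP) ran from -0.52 for miR-18b to -0.23 for miR-363, and their median was -0.29, against 0 over all 231 miRNAs tested. None passed the test (limma, Benjamini-Hochberg adjusted over 231 miRNAs, threshold 0.05), a threshold that 0.866% of all tested miRNAs passed. The miRNAs that passed were let-7a and let-7f, each with both siGFP values at the floor. At an unadjusted limma p below 0.05, 3 of 4 members were lower, against 11.3% of all tested miRNAs. Groups lay apart with siLin28a lower for 4 of 4 members, against 30.7% of all tested miRNAs. All 4 were detected on every array, so each was measured in both groups and none entered through 1 group alone.

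The miR-17 seed is carried by miR-106a and miR-20b. miR-106a had log2 scaled signals of -0.30 and -0.34 on the siLin28a arrays and -0.06 and 0.07 on the siGFP arrays. These are signals divided by the array's 75th percentile of probes detected on all arrays, so 0 means a signal equal to that percentile. The siLin28a values lay close together and below both siGFP values. The difference was -0.32 (SE 0.08, 95% interval -0.56 to -0.08, limma adjusted p = 0.159, n = 2 per group), or 20.1% lower. Of the 231 tested miRNAs, 34 had a difference at or below it.

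miR-20b had log2 scaled signals of 1.66 and 1.53 with siLin28a and 1.82 and 1.90 with siGFP. Again neither siLin28a array reached the lower siGFP array. The gap between the groups was 0.16, and the difference was -0.27 (SE 0.07, 95% interval -0.48 to -0.05, limma adjusted p = 0.159, n = 2 per group), or 16.8% lower.

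miR-18b carries the miR-18 seed and was close to the lower limit of measurement. It had log2 scaled signals of -3.05 and -3.11 with siLin28a and -2.76 and -2.36 with siGFP. The siGFP arrays differed from each other by more than the siLin28a arrays did, with SDs of 0.04 with siLin28a and 0.28 with siGFP. The difference was -0.52 (SE 0.16, 95% interval -0.98 to -0.06, limma adjusted p = 0.169, n = 2 per group), and 5 of 231 tested miRNAs, itself included, had one this low or lower. Without siGFP replicate 2 it was -0.32, and with all 4 of its probes kept it was -0.26. The probes added in that setting lay at the floor on every array. Each thus had a difference of 0, which by itself makes the average smaller.

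Of the 4 miR-18b probes, 2 passed the filter on dim probes, which asks for signal well above background on each array of at least 1 group. The brighter of them, with a target of 19 bases, had mean spot signals of 38.2 and 37.3 intensity units with siLin28a and 48.3 and 51.5 with siGFP, over 5 spots an array. This probe was lower with siLin28a also before any scaling between arrays. The other had 23.1 and 21.0 with siLin28a and 23.1 and 35.4 with siGFP, and both of its siLin28a values lay under the floor after scaling, which understates its difference of -0.44.

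miR-363 carries the miR-92 seed, which is known for targets such as Bcl2l11. It had log2 scaled signals of -1.52 and -1.59 with siLin28a and -1.44 and -1.20 with siGFP. The groups lay apart by only 0.08, less than the SD of the siGFP arrays of 0.17. The difference was -0.23 (SE 0.14, 95% interval -0.63 to 0.17, limma adjusted p = 0.346, n = 2 per group), and it was -0.35 without siGFP replicate 1 and -0.11 without siGFP replicate 2.

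**Figure D1:**
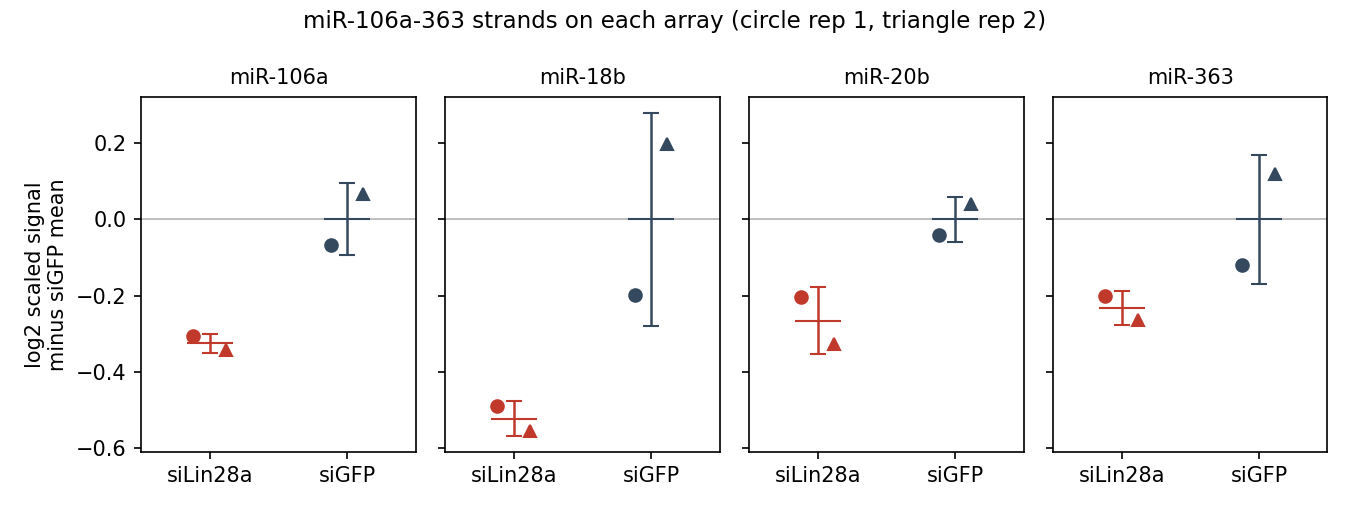
Log2 scaled signal of each member on each array, minus the mean of its siGFP arrays (y axis), with siLin28a and siGFP side by side (circles replicate 1, triangles replicate 2, horizontal bars means, error bars SD, n = 2). In every panel both siLin28a points lie below both siGFP points, by the smallest gap (0.08) for miR-363 and with the widest siGFP spread (SD 0.28) for miR-18b.

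Separate probes gave differences of the same sign. Of 10 member probes, 8 were kept, and all 8 were lower with siLin28a without overlap of the scaled values, against 28.3% of the 477 kept probes of all miRNAs, with differences from -0.60 to -0.22. Probes of 1 member share its target strand and are not independent. For miR-106a the differences were -0.29 for the probe of 14 bases and -0.36 for that of 15. For miR-20b they were -0.27 for each probe, and for miR-363 they were -0.25 for the probe of 18 bases and -0.22 for that of 19. Spots of 1 probe on 1 array varied with a median coefficient of variation of 5.62% (from 1.62% to 27.1%), and 10 of 280 spots were left out by the outlier flags in the files. One of these, a miR-106a spot on siGFP array 2, read 3971 intensity units, against a mean of 213 over the other spots of its probe there.

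**Figure D2:**
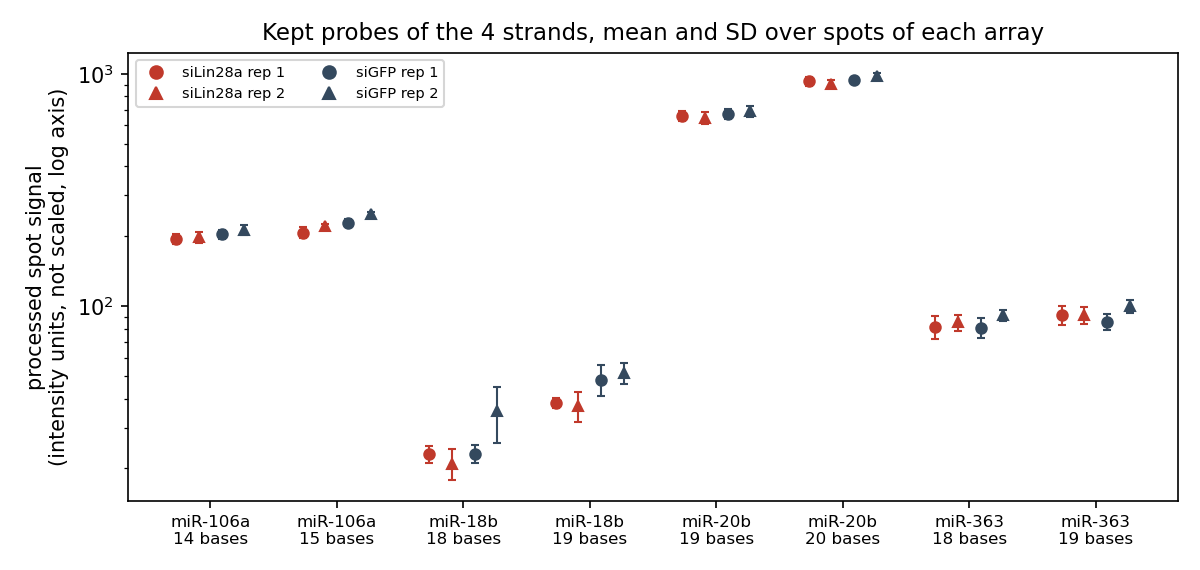
Mean processed spot signal of the 8 kept probes (x axis, named by member and target length) in unscaled intensity units on a log axis, with siLin28a and siGFP replicates and error bars for the SD over spots. Before scaling the miR-363 probes overlap between the groups, the miR-106a and miR-20b probes are lower with siLin28a by little, and the miR-18b probe of 19 bases is lower by more (38.2 and 37.3 with siLin28a, against 48.3 and 51.5 with siGFP).

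The size of the differences depended on the scaling between arrays. With no scaling, the probe averages of miR-106a, miR-18b and miR-20b still lay apart between the groups, and those of miR-363 did not. The total gene signal of Feature Extraction, which weighs probes in its own way and is not scaled, was 286 and 304 intensity units for miR-106a with siLin28a and 299 and 337 with siGFP, so the groups overlapped. For miR-20b it was 1130 and 1126 with siLin28a and 1118 and 1214 with siGFP, and for miR-363 it was 123 and 128 with siLin28a and 115 and 139 with siGFP. The groups overlapped in this measure for both. miR-18b, at 21.6 and 22.5 with siLin28a and 25.5 and 33.7 with siGFP, was the one member whose groups lay apart in it. The siLin28a arrays were brighter as a whole: with no scaling the median over all tested miRNAs was 0.19, and the members stood at -0.12 (miR-106a), -0.38 (miR-18b), -0.06 (miR-20b) and -0.03 (miR-363). Relative to that median they lay at -0.31, -0.58, -0.26 and -0.22. With normexp background correction, another way to subtract background, all 4 were still below 0, but miR-20b lay 0.06 above the median of all tested miRNAs.

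The strands that the cluster shares with miR-17-92 were lower as well. miR-19b had log2 scaled signals of 2.76 and 2.56 with siLin28a and 3.02 and 3.02 with siGFP. The difference was -0.36 (SE 0.09, limma adjusted p = 0.159, n = 2 per group). miR-92a had 1.90 and 1.95 with siLin28a and 2.09 and 2.23 with siGFP, a difference of -0.24 (SE 0.07, limma adjusted p = 0.169, n = 2 per group). Both clusters make the same mature strand in each case, so the array cannot say which locus the signal comes from. Of the opposite strands of the cluster's hairpins, miR-20b* had total signals of 2.87 and 4.33 with siLin28a and 3.797 and 4.90 with siGFP and miR-92a* was detected on no array. Neither passed the filter on dim probes, and the other opposite strands were not among the miRNA names on the array.

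Each member was then set against strands of the same seed, by the change of their log2 ratio within arrays between siLin28a and siGFP. Against strands of miR-17-92 alone, miR-106a minus miR-17 changed by -0.02, miR-20b minus miR-20a by -0.02 and miR-18b minus miR-18a by -0.17. miR-363 minus miR-92a changed by 0.00, but miR-92a is made from both clusters, so this ratio sets the member against a shared strand and not against a paralog. The groups overlapped for all 4 of these ratios. Within the probe target, miR-106a differs from miR-17, and miR-20b from miR-20a, at 1 base. Whether RNA of the mate adds to these signals, and so enters both sides of a ratio, was not tested. The 6 tested strands of miR-17-92 that are its own were each lower without overlap, against 30.7% of all tested miRNAs, with a median of -0.31, and 0 of 6 passed the limma test. They ran from -0.54 for miR-20a* (SE 0.21) to -0.24 for miR-17* (SE 0.10), and miR-17 stood at -0.31 (SE 0.08). miR-20a* lay close to the floor, with log2 scaled signals of -3.25 and -3.31 with siLin28a and -2.48 and -3.01 with siGFP. Of its 4 probes, 2 were kept. Its difference was -0.27 without siGFP replicate 1 and -0.80 without siGFP replicate 2. Without siLin28a replicate 2, miR-18a (-0.36 on all arrays) was -0.20, miR-19a (-0.31) was -0.14 and miR-20a (-0.25) was -0.15, and without siLin28a replicate 1 miR-19a was -0.48. All 6 were below 0 in each of the 16 alternative settings. With normexp background correction they ran from -0.475 to -0.108, where the median of all tested miRNAs was -0.186, so not all lay below that median.

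The miR-106b-25 cluster, in an intron of the replication gene Mcm7, had differences of the opposite sign. Its 4 tested strands were each higher with siLin28a without overlap, which 30.7% of all tested miRNAs also were, with a median of 0.17 and 0 of 4 past the limma test. This direction depended on the scaling: with the 75th percentile taken over all probes, 2 of 4 were higher and 2 of 4 lower (-0.04 to 0.04), where the median of all tested miRNAs was -0.16, and with normexp 3 of 4 were higher. miR-93 stood at 0.17 (SE 0.08) and miR-25 at 0.18 (SE 0.09) in the scaling used throughout, and miR-106b* at 0.14 (SE 0.10). Without siGFP replicate 1, miR-93 was 0.10 and miR-25 was 0.093, and without siLin28a replicate 1 miR-106b was 0.14, against 0.21 on all arrays. miR-106b, with the miR-17 seed, had log2 scaled signals of 1.38 and 1.24 with siLin28a and 1.08 and 1.13 with siGFP. Its unscaled total signals were 944 and 930 with siLin28a and 672 and 726 with siGFP. The log2 ratio of miR-106a to miR-106b changed by -0.53, that of miR-106a to miR-93 by -0.49, that of miR-20b to miR-106b by -0.48 and that of miR-20b to miR-93 by -0.44. miR-363 to miR-25, with the miR-92 seed, changed by -0.41. In these 5 ratios the groups did not overlap, and no scaling between arrays enters them except through the floor on dim signals.

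The exact permutation test of each of these 5 ratios gave p = 0.333 (two-sided), the smallest that 2 arrays against 2 allow, and 0.6 after Benjamini-Hochberg adjustment over the 9 ratios compared. The design cannot reach 0.05 in this test. Strands with the miR-17 seed lay on both sides of 0, with 4 of 6 lower (miR-106a, miR-20b, miR-17 and miR-20a) and 2 of 6 higher (miR-106b and miR-93). In the miR-92 seed family 2 of 3 were lower, and in the miR-18 family both were.

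**Figure D3:**
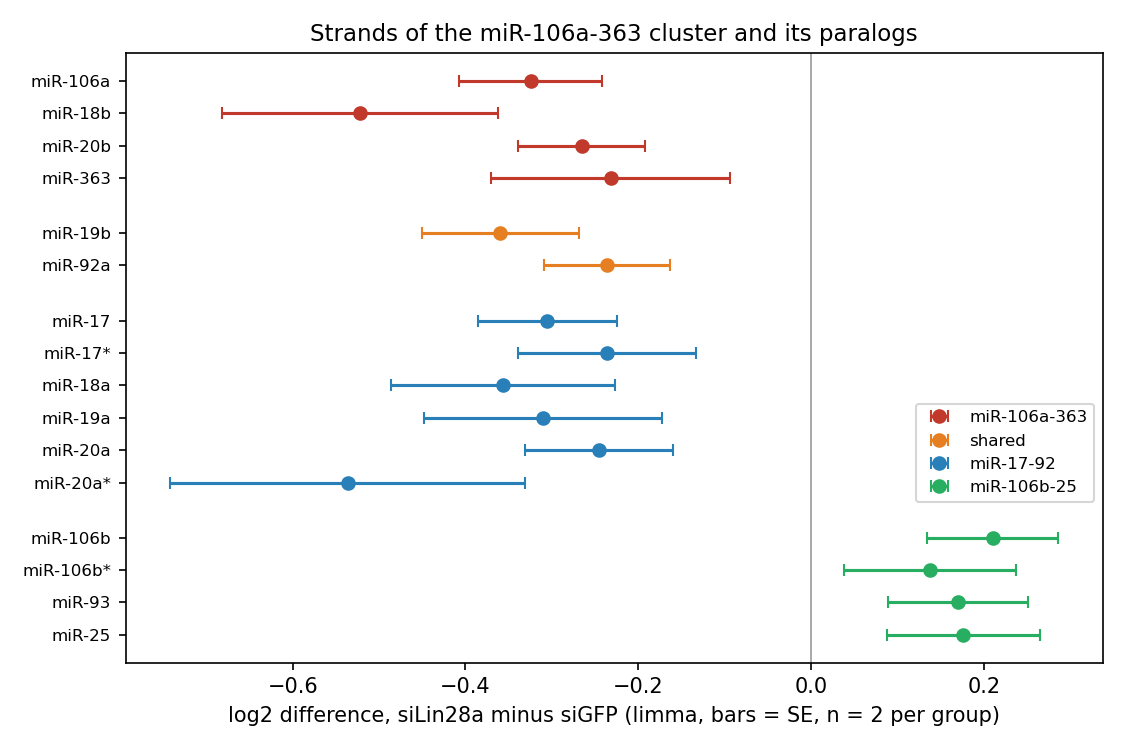
Log2 difference, siLin28a minus siGFP (x axis), of every tested strand of the miR-106a-363 cluster, the strands it shares with miR-17-92, miR-17-92 itself and miR-106b-25, with limma SE as bars (n = 2 per group). The 4 members, from -0.52 to -0.23, lie among the shared and miR-17-92 strands, while the 4 miR-106b-25 strands lie between 0.14 and 0.21 (-0.04 to 0.04 with the scaling over all probes).

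LIN28A is known to bind a GGAG motif in the loop of let-7 precursors, and the hairpins of the cluster were searched for it, on the RNA strand only. Of 6 hairpins in the cluster, 1 holds it, that of miR-363, where it begins at base 43 and ends 3 bases before the mature strand. The let-7f-1 hairpin holds it 4 bases before the annotated strand of its 3′ arm. The 2 are shown with GGAG in capitals, from RefSeq (GRCm38.p6), both from the minus strand.
Mir363: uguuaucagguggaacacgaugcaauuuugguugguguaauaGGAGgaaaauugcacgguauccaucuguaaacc
Mirlet7f-1: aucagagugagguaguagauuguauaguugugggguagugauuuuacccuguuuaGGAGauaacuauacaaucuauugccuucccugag
Of 1005 mouse hairpins of 39 to 147 bases in the table, 44.5% hold GGAG, and 23.7% hold it outside an annotated mature strand. Of 11 let-7 hairpins, 9 do. A match of letters is a description and not a binding site. On these arrays let-7f had total signals of 81.8 and 82.6 with siLin28a and 11.03 and 9.99 with siGFP. Its hairpins include Mirlet7f-2 besides the one shown, so this signal cannot be assigned to 1 hairpin. The total signals of miR-363, given above, overlapped between the groups, and its scaled signals were lower with siLin28a (difference -0.23). Whether the motif bears on the level of either strand was not tested.

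The tested miRNAs outside these clusters whose pattern over the 4 arrays was most like the mean pattern of the members were miR-665, miR-410, miR-136*, miR-130b and miR-433, out of 215. Likeness was the Euclidean distance between log2 values centred on each miRNA's mean, and it ran from 0.02 for miR-665 to 0.06 for miR-433. The mean pattern stood at -0.13 and -0.20 on the siLin28a arrays and 0.06 and 0.27 on the siGFP arrays. Replicate 2 thus had the lower siLin28a value and the higher siGFP value. miR-106a itself lay 0.06 from it, miR-363 0.11, miR-20b 0.12 and miR-18b 0.23, and the nearest paralog, miR-17, lay 0.08 away. The 5 miRNAs had differences from -0.34 (miR-410) to -0.29 (miR-433), and none passed the limma test, with adjusted p values from 0.159 to 0.266. They were picked by these same array values, so differences near those of the members follow from the choice.

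**Figure D4:**
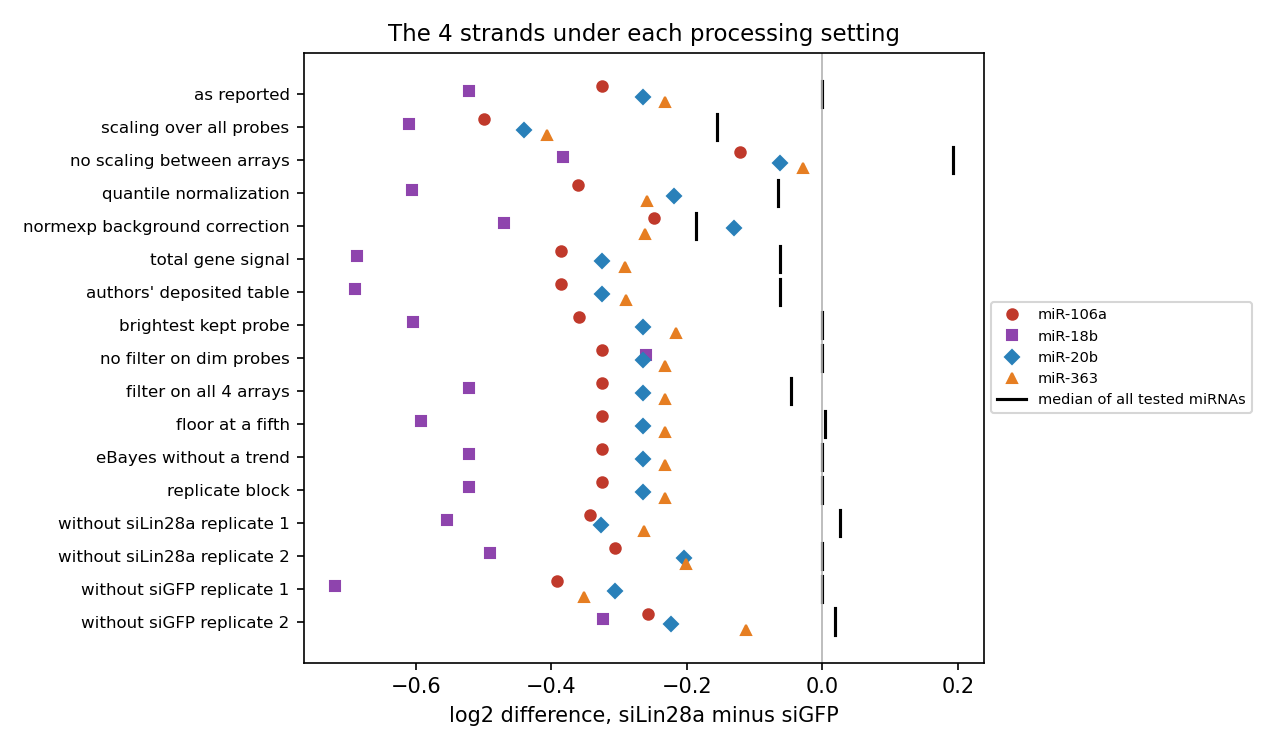
Log2 difference, siLin28a minus siGFP (x axis), of the 4 members under each processing setting (rows), with the median of all tested miRNAs as a black bar. All points lie below 0, the nearest to it being miR-363 with no scaling (-0.03), and the median itself moves between -0.19 and 0.19.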

How the data were processed

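The authors deposited Agilent Feature Extraction output, in which each spot has a linear intensity (9.5.1.1 per the file headers, 9.5.3.1 per the submitters' processing notes). Processed values equalled mean signal less background on 100% of rows, and arrays were not scaled to each other. The authors' deposited series table holds the total gene signal, rounded to 1 decimal (100% of values above 10 within 5%), and its column medians were 6.3 and 9.1 for siLin28a and 4.7 and 4.7 for siGFP.

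Flagged outlier spots (3.21% to 4.32%) were dropped and spots averaged per probe. A probe was well above background where at least 50% of its spots were. Arrays were divided by their 75th percentile over 425 probes well above background on all arrays (248 and 265 for siLin28a, 226 and 220 for siGFP), floored at 0.0948 and taken to log2. A probe passing on each array of at least 1 group was kept (477 of 1712) and averaged per miRNA (231). The test was limma 3.58.1 under R 4.3.3 (eBayes with a trend, two-sided, 2 residual and 1.64 prior degrees of freedom). Ratios were compared by exact permutation over arrays (scipy 1.17.1). Fits were run on simulated data with planted changes larger than those of the members, so this does not bear on changes of their size. The number of arrays limits precision.

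By rule, the members, every tested strand of the shared, opposite, miR-17-92 and miR-106b-25 lists, the 5 miRNAs nearest in pattern, and let-7a and let-7f are named. The dim miR-20b* and miR-92a*, the other tested let-7 strands and undetected cell type markers are named besides, outside the rule. The members, lists and comparisons were chosen with earlier results of these data known.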

Additional observations from a re-analysis of the deposited data

How the results depend on the processing

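The 4 members kept a negative difference and stayed short of the threshold in all 16 alternatives. Adjusted limma p values ran from 0.0997 to 0.513 for miR-106a, 0.105 to 0.616 for miR-18b, 0.102 to 0.592 for miR-20b and 0.168 to 0.912 for miR-363. The median of the members was -0.47 with the scaling over all probes and -0.092 with no scaling, with 3 of 4 then apart, and ran from -0.37 to -0.24 with 1 array left out. The count of all miRNAs called (2 as reported) was 0 with the scaling over all probes, 7 with normexp, 8 with the total gene signal, 8 with the authors' deposited table, 48 with no filter on dim probes, 0 with the filter on all 4 arrays, 8 with the floor at 1 in 5 of its level, and 0 to 11 with 1 array left out, where the lone array is assumed to vary like the other group. The cause was not tested. Small ratio changes turned sign: miR-363 minus miR-92a to -0.14 with quantile normalization and -0.17 with normexp (-0.049 to 0.058 with 1 array left out), miR-18b minus miR-18a to 0.10 with no filter (-0.36 to 0.028 with 1 array left out), and miR-20b minus miR-20a between -0.052 and 0.013 with 1 array left out. The miR-18b probes added with no filter lay at the floor on every array, with a difference of 0 each. Averaging them in moved the ratio of miR-18b to miR-18a in that setting. The changes against miR-106b-25 strands kept their sign throughout. Deviations of same-numbered replicates correlated at 0.71 over miRNAs, but with 2 pairs, and with replicate number going with slide position, this is a hint only. With the replicate block 2 miRNAs were called, 0 of them members (adjusted p 0.127 for miR-106a, 0.105 for miR-18b, 0.181 for miR-20b, 0.25 for miR-363). Signal over background limits miR-18b, with 2 of its 4 probes too dim to be kept.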
